A study of Mus musculus with 8 samples.

Results

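The immediate early genes followed here were Fos, Fosb, Junb, Egr1, Egr2, Egr3, Atf3, Ier2, Nr4a1 and Dusp1, which are 10 of the 43629 Ensembl genes counted in every embryo. They were chosen by symbol as a family, without a threshold on their values, and all 10 passed the filter on low counts. RNA was sequenced from the lower molars of mouse embryos at E18.5, with the left and right molars of an embryo pooled into 1 library. The control group was made up of 4 littermates (J3, J5, J6 and J7) that the labels give as Jagged1fl/fl, with floxed alleles and no Cre named, and that the study calls WT. The mutant group was made up of 4 K14Cre;Jagged1fl/fl embryos (K14J26, K14J28, K14J29 and K14J30), in which Cre under the keratin 14 promoter deletes Jagged1, a Notch ligand, in the epithelium. The mesenchyme of the same molars keeps the gene, and the libraries hold RNA of both tissues. The sex of the embryos and the litter of each were not stated in the sources used here. The comparison asked which of these genes were higher and which were lower after epithelial loss of Jagged1.

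Immediate early genes are transcribed within minutes of a signal reaching a cell, without new protein synthesis, and their transcripts are short-lived. Growth factor signalling through the ERK kinases acts on the serum response factor and its ternary complex partners, and cyclic AMP and calcium act on CREB, which binds the cyclic AMP response element. Fos, Fosb, Junb and Atf3 encode basic leucine zipper proteins of the AP-1 and ATF families, the Egr genes encode zinc finger factors, Nr4a1 encodes an orphan nuclear receptor and Dusp1 encodes a phosphatase that switches MAP kinases off. Many of these genes also respond to handling and dissociation of tissue.

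The family did not move as a block. Egr3 rose 2.70-fold in the mutant molars and Atf3 fell to 0.680 of its control level, and these were the members that passed an adjusted p of 0.05. Fos and Egr1 had higher mean levels in the mutants, with a wide spread between embryos, and did not pass. Fosb and Egr2 were lower in each mutant than in any control embryo and did not pass either. Junb, Ier2, Nr4a1 and Dusp1 had log2 fold changes between -0.30 and -0.08, and none passed.

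In edgeR's quasi-likelihood test, 1 of the 10 members was called higher, where 9.52% of the 17129 genes tested were called higher. Likewise 1 of the 10 was called lower, beside 6.61% of all genes tested. Over all genes, 1631 were called higher and 1133 lower, and the balance turned with upper-quartile scaling (1363 and 1448) and with library size alone (855 and 1060). By the criteria of the study, a p no higher than 0.05 and a fold change of 0.5 or more, taken here as an unadjusted p and a log2 fold change in either direction because the scale is not stated, 3 members were higher (Egr3, Egr1 and Fos) beside 8.33% of all genes. Egr1 met them narrowly, at an unadjusted p of 0.0496, and missed them with relative log expression scaling (0.0505), upper-quartile scaling (0.0552), library size alone (0.0541), 10 counts required in all 8 embryos (0.0510), DESeq2 (0.0596), the enamel score (0.151) and the muscle score (0.290), and without J3, J5, J6, J7, K14J26 or K14J29 (0.0652 to 0.152). Fos missed the criteria with library size alone (log2 fold change 0.495), the enamel score (-0.13) and the muscle score (0.47, unadjusted p = 0.111). It also missed them without J7 (unadjusted p = 0.0609), K14J26 (0.0514) or K14J29 (0.0645). By the same criteria 3 members were lower (Egr2, Fosb and Atf3) beside 5.85% of all genes. The median log2 fold change of the members was -0.16 and that of all genes tested was 0.0058. The median size of the change, regardless of sign, was 0.59 for the members and 0.22 for all genes tested.

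**Figure D1:**
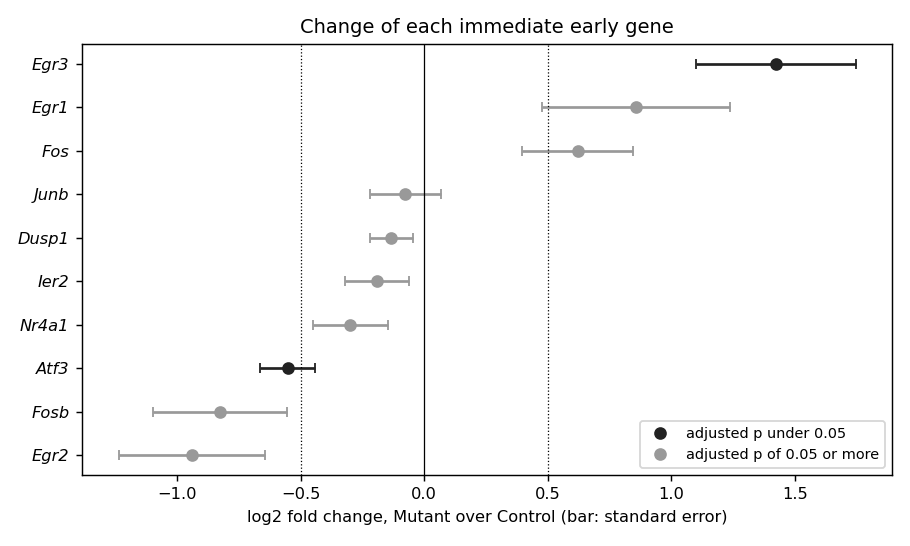
Log2 fold change of each immediate early gene, K14Cre;Jagged1fl/fl over control, with the standard error as a bar (4 embryos per group). Dotted lines mark log2 fold changes of -0.5 and 0.5, and the dark points, Egr3 at 1.42 and Atf3 at -0.55, are those with an adjusted p under 0.05.

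The count files held 17327224 to 29792467 reads on genes for each embryo. Levels are given as CPM, the count of a gene scaled to the library size after TMM normalization, and 3 counts correspond to 0.0998 to 0.166 CPM, a limit that covers counting error only. The deleted gene Jag1 lay between 95.2 and 104 CPM in the controls and between 34.0 and 57.1 CPM in the mutants (log2 fold change -1.19, SE 0.141, adjusted p = 0.00517). The control molars J6 and J7 carried transcripts of skeletal muscle, with 373 and 183 CPM summed over 6 muscle markers against 4.65 to 17.4 CPM in the other 6 embryos. Markers of ameloblasts, the enamel-forming cells, summed to 3500 to 114000 CPM in the mutants and to 557 to 3250 CPM in the controls. The labels do not say that the embryos of a group came from separate litters, so the p-values measure the spread between these embryos. Xist, the RNA that coats the inactive X chromosome of female cells, stood at 1930 CPM in the mutant K14J28 and at 1470 CPM in the mutant K14J29, against 0.259 to 1.09 CPM in the other 6 embryos. With Xist as a covariate, Egr3 (log2 fold change 1.77, adjusted p = 0.0253) and Atf3 (-0.61, adjusted p = 0.0383) were still called. In whole molars, fewer cells of a type and less RNA per cell cannot be told apart.

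The 250 bases before the transcription start are shown for the members whose levels diverged within a family, Fos beside Fosb, and for Egr2 and Atf3, because elements close to the start are known to carry the response of early genes to signals. They were read from RefSeq on GRCm38.p6, where 7 of the 10 members had a window that was used, and are written 5′ to 3′ on the strand of the gene with matches in capitals. The Fos window lies at chr12:85473640-85473889 on the plus strand, the Fosb window at chr7:19310046-19310295 on the minus strand, the Egr2 window at chr10:67537619-67537868 on the plus strand (1 of 5 Egr2 windows, that of the principal start) and the Atf3 window at chr1:191183334-191183583 on the minus strand.
Fos: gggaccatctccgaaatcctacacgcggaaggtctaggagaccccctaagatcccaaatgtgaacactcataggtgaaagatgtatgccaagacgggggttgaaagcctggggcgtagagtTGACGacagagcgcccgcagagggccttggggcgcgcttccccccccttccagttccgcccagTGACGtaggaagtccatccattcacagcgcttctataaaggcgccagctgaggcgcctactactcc
Fosb: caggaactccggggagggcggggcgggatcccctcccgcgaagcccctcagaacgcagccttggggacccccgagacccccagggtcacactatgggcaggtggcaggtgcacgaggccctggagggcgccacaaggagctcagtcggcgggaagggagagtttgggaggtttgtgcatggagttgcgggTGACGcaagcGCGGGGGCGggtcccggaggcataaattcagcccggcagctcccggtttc
Egr2: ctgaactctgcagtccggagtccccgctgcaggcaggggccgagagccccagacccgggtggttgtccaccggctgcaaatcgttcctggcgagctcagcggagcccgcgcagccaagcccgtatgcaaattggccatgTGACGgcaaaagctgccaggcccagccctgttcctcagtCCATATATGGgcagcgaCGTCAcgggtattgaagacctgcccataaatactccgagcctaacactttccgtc
Atf3: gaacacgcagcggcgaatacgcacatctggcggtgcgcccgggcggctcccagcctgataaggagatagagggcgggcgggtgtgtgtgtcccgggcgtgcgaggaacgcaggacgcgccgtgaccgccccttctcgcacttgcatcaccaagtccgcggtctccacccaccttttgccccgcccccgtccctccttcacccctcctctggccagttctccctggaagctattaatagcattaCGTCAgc

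Capitals mark matches on either strand to TGACG, the core of the cyclic AMP response element, to GCGGGGGCG, an Egr binding sequence, and to the CArG box bound by serum response factor. TGACG was found at -129 and -66 from the start in Fos, at -60 in Fosb, at -111 and, on the other strand, at -55 in Egr2, and, on the other strand, at -7 in Atf3, counted at the first base of each match. It was also found once in the Junb window, 3 times in that of Dusp1 and 4 times in that of Nr4a1, so all 7 windows used held it, members that passed no test included, beside 17.8% of all 32851 RefSeq windows of the same length. GCGGGGGCG (2.57% of all windows) was found at -50 in the Fosb window and, on the other strand, at -60 in that of Nr4a1, and the Egr2 window held a CArG box at -72 (1.47% of all windows). The full element TGACGTCA (1.55% of all windows), which contains TGACG on both strands, was found at -143 in the Dusp1 window and in none of the windows of Fos, Fosb, Junb, Egr2, Atf3 and Nr4a1. TGACTCA, the AP-1 sequence (4.46% of all windows), was in none of the 7 windows used. A match describes the letters only, and these data do not measure binding.

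Within the Egr family, Egr3 rose, Egr2 was lower without passing, and Egr1 was higher in some mutants only. Egr3 (ENSMUSG00000033730, chr14:70077203-70082614, plus strand, GRCm38) was at 0.775 CPM in J3, 1.03 CPM in J5, 1.40 CPM in J6 and 0.878 CPM in J7. Among the mutants, K14J26 had 4.09 CPM, K14J28 1.5 CPM, K14J29 2.88 CPM and K14J30 2.56 CPM. All mutants lay above all controls, although the lowest mutant, K14J28, was close to the highest control, J6. The counts behind these levels were 14 to 27 reads in the controls and 45 to 85 reads in the mutants. The mean was 1.02 ± 0.274 CPM (SD, n = 4) in the controls and 2.76 ± 1.07 CPM (SD, n = 4) in the mutants, with a log2 fold change of 1.42 (SE 0.323, adjusted p = 0.0234). The call for Egr3 was lost without J3 (adjusted p = 0.0698), J5 (0.0620), J7 (0.0770) or K14J29 (0.0688), with log2 fold changes of 1.18 to 1.63 over the 8 fits that left out 1 embryo. In a fit that also held a score of enamel genes (described further on) the log2 fold change of Egr3 was 0.39 (adjusted p = 0.492), and with a muscle score it was 1.49 (adjusted p = 0.0980).

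Egr1 (ENSMUSG00000038418, chr18:34859823-34864984, plus strand), the most abundant of the Egr genes per kilobase of exon, was at 31.9 CPM in J3, 28 CPM in J5, 25.1 CPM in J6 and 24.7 CPM in J7. Its mutant levels were 97 CPM in K14J26, 26.9 CPM in K14J28, 48.4 CPM in K14J29 and 26.7 CPM in K14J30. The groups overlapped, since K14J26 and K14J29 stood above every control while K14J28 and K14J30 lay among the controls. The means were 27.4 ± 3.31 CPM and 49.8 ± 33.1 CPM (SD, n = 4 each), and the log2 fold change of 0.86 (SE 0.380, adjusted p = 0.143) did not pass. Without K14J26 it was 0.31 (adjusted p = 0.296).

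Egr2 (ENSMUSG00000037868, chr10:67535475-67542188, plus strand), a factor known for its part in Schwann cell myelination and hindbrain patterning, had the fewest reads of the members in the mutants. Its levels were 0.886, 1.07, 0.830 and 1.62 CPM in J3, J5, J6 and J7, and 0.385, 0.599, 0.658 and 0.660 CPM in K14J26, K14J28, K14J29 and K14J30. All mutants were below all controls, and the control J7 stood above the rest of its group. These levels rest on 16 to 48 reads per control and 8 to 19 reads per mutant. The means of 1.10 ± 0.361 CPM and 0.575 ± 0.130 CPM (SD, n = 4 each) did not differ enough to pass the adjusted threshold (log2 fold change -0.94, SE 0.296, adjusted p = 0.0584). In edgeR's exact test Egr2 had an adjusted p of 0.0377, and over the other scalings, filters, tools and covariates its adjusted p reached 0.655, in the fit with the enamel score, where its log2 fold change was -0.42.

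Among the AP-1 and ATF genes, Atf3 fell, Fosb was lower and Fos higher without passing, and Junb differed little. Fos (ENSMUSG00000021250, chr12:85473890-85477273, plus strand), the prototype of the family and a partner of the Jun proteins, had 8.69, 9.07, 7.99 and 7.06 CPM in J3, J5, J6 and J7. The mutants were at 16.9 CPM (K14J26), 7.85 CPM (K14J28), 15.2 CPM (K14J29) and 10.6 CPM (K14J30). K14J28 lay within the control range and the other 3 mutants above it. The means were 8.20 ± 0.884 CPM and 12.6 ± 4.16 CPM (SD, n = 4 each), with a log2 fold change of 0.62 (SE 0.225, adjusted p = 0.0866). Fos passed in the fit without K14J28 (0.79, adjusted p = 0.0128) and with DESeq2 (adjusted p = 0.0405).

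Fosb (ENSMUSG00000003545, chr7:19302696-19310051, minus strand), the closest relative of Fos in the list, had lower levels in the mutants. It had 1.55, 1.86, 2.85 and 1.32 CPM in J3, J5, J6 and J7, from 28 to 55 reads per embryo. Its level was 1.01 CPM in K14J26, 1.23 CPM in K14J28, 0.866 CPM in K14J29 and 1.13 CPM in K14J30, from 21 to 37 reads. Every mutant was below every control, with J7 and K14J28 next to each other. The means of 1.89 ± 0.677 and 1.06 ± 0.157 CPM (SD, n = 4 each) gave a log2 fold change of -0.83 (SE 0.272, adjusted p = 0.0654), which did not pass. DESeq2 gave Fosb an adjusted p of 0.0457 and the exact test of edgeR 0.0461, and these were the 2 calls among 11 other settings, whose adjusted p ran up to 0.234. Fosb passed in 0 of the 8 fits without 1 embryo, with -0.57 without J6 (adjusted p = 0.146).

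Atf3 (ENSMUSG00000026628, chr1:191170296-191218039, minus strand), a stress-induced factor that can repress its targets, was the member with the smallest relative spread in the mutants. It had 7.53, 7.17, 6.95 and 6.18 CPM in J3, J5, J6 and J7, and 4.42, 4.86, 4.92 and 4.73 CPM in K14J26, K14J28, K14J29 and K14J30. The groups did not overlap, and the gap between them was wider than the range of the mutants. The mean went from 6.96 ± 0.571 CPM to 4.73 ± 0.222 CPM (SD, n = 4 each) at a log2 fold change of -0.55 (SE 0.113, adjusted p = 0.0179). Across the fits without 1 embryo the log2 fold change of Atf3 lay between -0.61 and -0.51, and the call was lost without J3 (adjusted p = 0.0561), J5 (0.0535) or K14J29 (0.0560). With the enamel score as a covariate it was -0.51 (adjusted p = 0.174) and with the muscle score -0.60 (adjusted p = 0.0659).

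Junb (ENSMUSG00000052837, chr8:84974484-84978718, minus strand) encodes a Jun protein that dimerizes with Fos. It had 20.5, 25.6, 22.0 and 18.2 CPM in J3, J5, J6 and J7 and 22.4, 16.2, 24.1 and 19.3 CPM in K14J26, K14J28, K14J29 and K14J30. The groups overlapped throughout, and the log2 fold change was -0.08 (SE 0.144, adjusted p = 0.740). Of the 2301 exonic bases of Junb, 173 are shared with Prdx2 on the opposite strand, at 693 CPM in the controls and 598 CPM in the mutants. The library kit did not mark strand, so reads on the shared bases cannot be told apart.

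Nr4a1, Ier2 and Dusp1 had lower means in the mutants and did not pass. Nr4a1 (ENSMUSG00000023034, chr15:101254269-101274795, plus strand) had 9.41, 9.40, 10.4 and 10.8 CPM in J3, J5, J6 and J7 and 5.91, 9.85, 8.14 and 8.58 CPM in K14J26, K14J28, K14J29 and K14J30. The lowest level was that of K14J26, and K14J28 lay within the control range. Its log2 fold change was -0.30 (SE 0.152, adjusted p = 0.193), and -0.18 without K14J26 (adjusted p = 0.295). Ier2 (ENSMUSG00000053560, chr8:84661331-84662852, minus strand), a nuclear protein of the early response, had 34.3, 30.1, 30 and 25.3 CPM in the controls and 31.5, 21.4, 26.1 and 25.9 CPM in the mutants, in the same order of embryos (log2 fold change -0.19, SE 0.129, adjusted p = 0.319). Dusp1 (ENSMUSG00000024190, chr17:26505590-26562128, minus strand) had 25.3, 26.8, 27.1 and 23.7 CPM in the controls and 22.2, 21.3, 26.5 and 23.8 CPM in the mutants (log2 fold change -0.13, SE 0.0886, adjusted p = 0.315). For both genes the groups overlapped. Without 1 embryo, the log2 fold change of Ier2 lay between -0.11 (without K14J28) and -0.29 (without K14J26). Dusp1 shares 11 of its 3311 exonic bases with Ergic1 on the opposite strand.

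**Figure D2:**
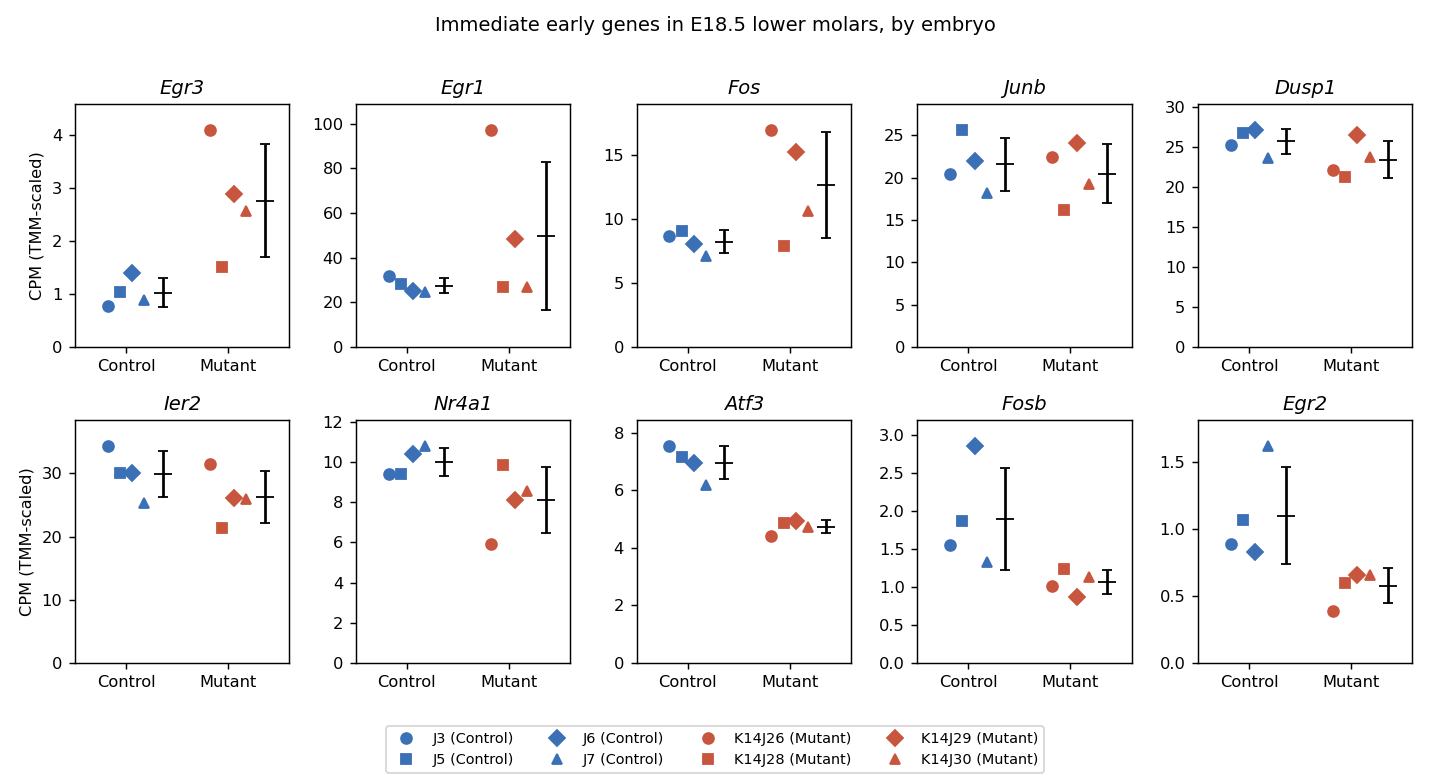
CPM (TMM-scaled) of the 10 immediate early genes in each of the 8 embryos, ordered by log2 fold change, with the group mean and SD as a bar (n = 4 per group). All mutants lie above all controls for Egr3 and below them for Atf3, Fosb and Egr2, while K14J26 stands high for Egr1 and low for Nr4a1.

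The groups did not overlap in 4 of the 10 members, 1 with the mutants higher and 3 with the mutants lower. Over all genes tested, all mutants lay above all controls in 12.6% and below them in 11.6%. The coefficient of variation was larger in the mutants than in the controls for 7 of the 10 members, beside 73.6% of all genes tested, and it was largest for Egr1, at 66.5% in the mutants against 12.1% in the controls. The exceptions were Fosb, Egr2 and Atf3, which were less variable in the mutants. The mutant K14J26 held the highest or the lowest level of all 8 embryos in 6 members. The same count was not made over all genes, so it has no share beside it and is not a trait of the members. The TMM factor of K14J26 was 0.843, against 0.969 to 1.043 in the other embryos.

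Levels were compared between genes as CPM per kilobase of merged exons. In the controls, Ier2 was the highest at 19.7 CPM per kb, followed by Junb (9.39), Dusp1 (7.77) and Egr1 (6.12). Fos (3.49), Atf3 (3.23) and Nr4a1 (2.85) came next, and each overlapped its neighbour in range, as did Junb and Dusp1. Egr2 (0.324), Fosb (0.303) and Egr3 (0.232) were the lowest and overlapped too. In the mutants the mean of Egr1 was 11.1 CPM per kb, above Junb at 8.91, but its range of 5.95 to 21.6 overlapped those of Ier2, Junb and Dusp1. Egr3 was at 0.625 CPM per kb in the mutants, and its range of 0.340 to 0.927 did not overlap those of Fosb or Egr2, both at 0.169.

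Differences between relatives within an embryo do not depend on the scaling of its library, and 3 are described. The pairs were set with earlier results of these data known, when the opposite directions of their genes were in view, so no test of them is given. Fosb minus Fos, in log2(counts + 0.5), was -2.47, -2.28, -1.48 and -2.41 in J3, J5, J6 and J7 and -4.04, -2.66, -4.10 and -3.21 in K14J26, K14J28, K14J29 and K14J30. Fosb was thus lower relative to Fos in every mutant than in any control, with a difference of -1.35 between the group means. Egr2 minus Egr1 was -5.13, -4.68, -4.88 and -3.92 in the controls and -7.89, -5.45, -6.16 and -5.30 in the mutants, again without overlap (difference -1.55). Egr3 minus Egr1 had means of -4.74 ± 0.480 and -4.04 ± 0.494 (SD, n = 4 each) and a difference of 0.71, with overlapping groups.

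**Figure D3:**
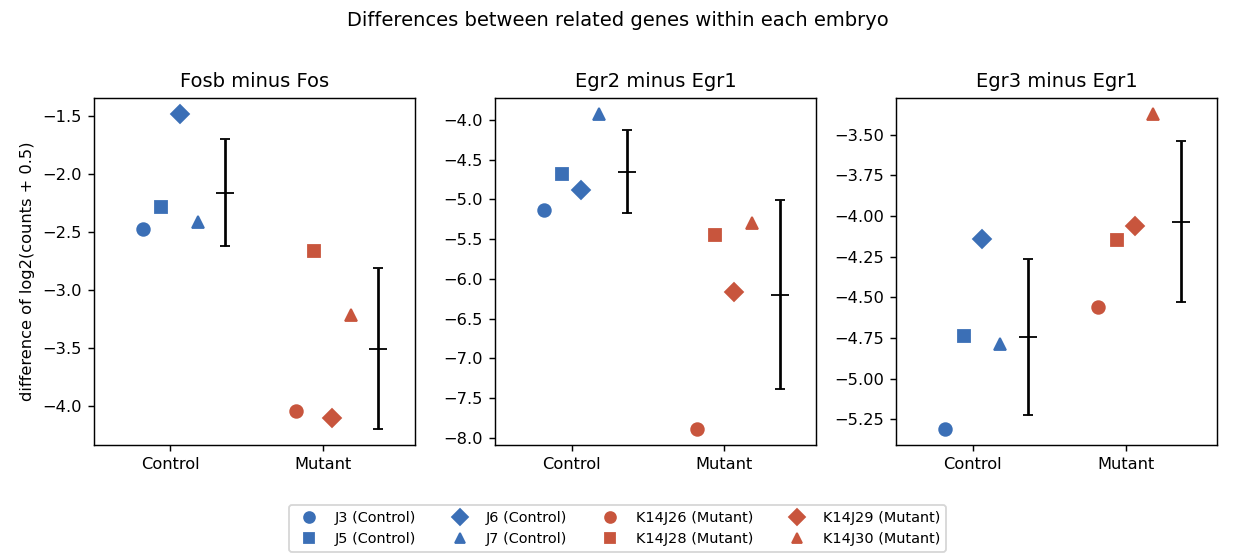
Difference in log2(counts + 0.5) between related genes in each embryo, with the group mean and SD as a bar (n = 4 per group). The groups do not overlap for Fosb minus Fos and Egr2 minus Egr1, and they overlap for Egr3 minus Egr1.

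Within the mutants, Fos, Egr3 and Ier2 ranked the embryos in the same order as the enamel genes did. The enamel gene score, the mean log2 CPM of Klk4, Mmp20, Enam, Ambn and Amelx, was 4.78, 6.13, 6.87 and 4.73 in J3, J5, J6 and J7, and 11.8, 6.94, 9.79 and 8.17 in K14J26, K14J28, K14J29 and K14J30. All mutants lay above all controls, with K14J28 next to J6. The order K14J26, K14J29, K14J30 and K14J28 was shared by the score, Fos, Egr3 and Ier2 in the mutants. For Ier2, K14J29 and K14J30 were close, at 26.1 and 25.9 CPM. Nr4a1 had the reverse order, with its lowest level in the embryo with the highest score, and the other members had neither order. In the controls the score ran J6, J5, J3 and J7, an order that Fos, Egr3 and Ier2 did not share. The scores of J3 and J7 were close, at 4.78 and 4.73, and Egr3 departed from the order only in these embryos. The likeness of these orders was not tested. With the score as a covariate, the log2 fold change was -0.13 for Fos, -0.52 for Egr1 and 0.07 for Nr4a1, each with the opposite sign to the fit without it and none passing (adjusted p = 0.778, 0.412 and 0.852). In the same fit the log2 fold change was -0.46 for Junb (adjusted p = 0.145), -0.50 for Ier2 (adjusted p = 0.114), -0.23 for Dusp1 (adjusted p = 0.335) and -0.96 for Fosb (adjusted p = 0.222). Because the score separated the groups, the genotype and the enamel score cannot be told apart in these embryos.

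**Figure D4:**
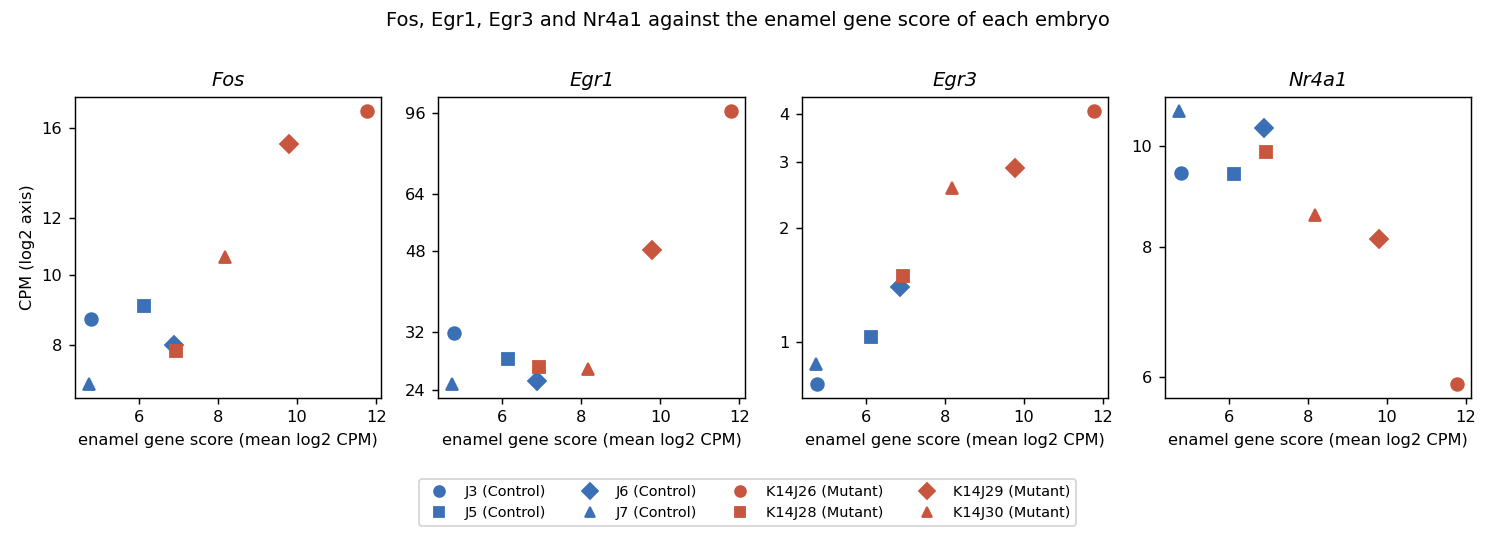
CPM (log2 axis) of Fos, Egr1, Egr3 and Nr4a1 against the enamel gene score (mean log2 CPM of 5 enamel genes) in each of the 8 embryos. The mutant with the highest score, K14J26 at 11.8, has the highest Fos, Egr1 and Egr3 and the lowest Nr4a1, and K14J28 at 6.94 lies close to the controls.

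Genes related to the members were counted in lists described by their counts and medians, beside the 9.52% and 6.61% of all genes called higher and lower. All genes were not counted at an unadjusted p under 0.05 alone, so list counts at that threshold have no share beside them. DESeq2 called 2244 genes higher and 1718 lower in all. Of 7 tested other AP-1 subunits, 0 were called higher and 1 lower, with a median log2 fold change of -0.04. Jun, the main partner of Fos, fell from 28.9 ± 3.45 to 20.6 ± 3.51 CPM (SD, n = 4 each, log2 fold change -0.49, SE 0.131, adjusted p = 0.0364), with overlapping groups, and passed in 4 of the 8 fits without 1 embryo (not without J3, J5, J7 or K14J30, adjusted p of 0.0729 to 0.0994). Its call was also lost with the enamel score (-0.45, adjusted p = 0.246), the muscle score (-0.58, adjusted p = 0.0768) and J6 and J7 left out (-0.63, adjusted p = 0.138). The log2 fold change of Jund was -0.20 (adjusted p = 0.419), and -0.75 with the enamel score (adjusted p = 0.0229), -0.39 without K14J26 (adjusted p = 0.0235) and -0.097 without K14J28 (adjusted p = 0.658). That of Fosl2 was 0.31 (adjusted p = 0.0641). Fosl1 was under the filter, at 0 to 10 reads per embryo.

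Of the Egr and Nr4a relatives and the Nab corepressors of Egr proteins, 4 of 5 were tested and edgeR's quasi-likelihood test called 0, with 1 higher and 0 lower at an unadjusted p under 0.05 and 0 by DESeq2. The log2 fold changes were 0.02 for Nr4a2 (adjusted p = 0.949), -0.66 for Nr4a3 (adjusted p = 0.200) and 0.18 for Nab2 (adjusted p = 0.210). Egr4 was not tested, with 1 read in J6 and 0 reads in the other 7 embryos. The sign of Nr4a2 turned with upper-quartile scaling (-0.02) and with library size alone (-0.08).

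Of 29 other early response genes, 2 were called higher and 6 lower, with a median of -0.05. Rhob, a small GTPase, rose from 128 to 294 CPM on average (log2 fold change 1.21, SE 0.313, adjusted p = 0.0334), and Zfp36, whose protein triggers the decay of short-lived transcripts, rose from 12.6 to 21.4 CPM (log2 fold change 0.77, SE 0.198, adjusted p = 0.0333). Both had their highest level in K14J26, and both calls were lost in 5 of the 8 fits without 1 embryo (without J3, J5, J6, J7 or K14J29, with adjusted p of 0.0575 to 0.0962) and with the enamel score as a covariate, where Rhob was at -0.04 (adjusted p = 0.875) and Zfp36 at 0.07 (adjusted p = 0.847). The largest falls among the called genes were those of the matricellular genes Ccn1 (log2 fold change -1.54, adjusted p = 0.00485) and Ccn2 (-1.07, adjusted p = 0.00485), of the kinase gene Plk3 (-0.92, adjusted p = 0.0112) and of Ier5 (-0.50, adjusted p = 0.0102). Each of these passed in all 8 fits without 1 embryo. Ccn1 and Ccn2 also passed in all 11 other settings. Plk3 passed in 9 of the 11 (adjusted p up to 0.158, smallest fall -0.59) and Ier5 in 10 (adjusted p up to 0.0702).

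Of 9 phosphatases related to Dusp1, 4 were called lower and 0 higher, with a median log2 fold change of -0.41. They were Dusp4 (log2 fold change -1.21, adjusted p = 0.0282), Dusp6, the ERK-specific feedback phosphatase (-0.75, adjusted p = 0.0354), Dusp5 (-0.66, adjusted p = 0.0313) and Dusp8 (-0.41, adjusted p = 0.0427). These calls were less stable than the directions, since Dusp6 passed in 2, Dusp4 in 3, Dusp5 in 2 and Dusp8 in 2 of the 8 fits without 1 embryo, with adjusted p of up to 0.115. None reversed in sign in these fits. Dusp6 was lost without every embryo other than K14J26 and K14J28, at adjusted p of 0.0531 to 0.0991. With the enamel score as a covariate all 4 calls were lost, and the log2 fold change was -0.085 for Dusp6 (adjusted p = 0.666), -0.28 for Dusp5 (adjusted p = 0.504), -0.20 for Dusp8 (adjusted p = 0.515) and -1.52 for Dusp4 (adjusted p = 0.0960). All 4 were also lost with the muscle score (adjusted p of 0.110 to 0.164) and with J6 and J7 left out (0.168 to 0.231). With the muscle score the log2 fold changes were -1.23 for Dusp4, -0.77 for Dusp6, -0.60 for Dusp5 and -0.36 for Dusp8. With J6 and J7 left out they were -1.07, -0.83, -0.61 and -0.39 in the same order. Xist as a covariate ended the calls of Dusp4 (log2 fold change -1.12, adjusted p = 0.0890) and Dusp8 (-0.47, adjusted p = 0.0692). Library size alone ended those of Dusp6 (-0.82, adjusted p = 0.0551) and Dusp8 (-0.50, adjusted p = 0.0676). The omission of the filter ended that of Dusp8 (-0.41, adjusted p = 0.0720).

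None of the 19 kinases of the MAP kinase cascade was called (median log2 fold change 0.0013, with 2 higher and 0 lower at an unadjusted p under 0.05 and 0 by DESeq2). None of the 12 SRF, ternary complex, MRTF and CREB factors was called either (median 0.06, with 1 higher and 4 lower at an unadjusted p under 0.05, and 1 higher and 2 lower by DESeq2), and the log2 fold change of Srf was -0.19 (adjusted p = 0.0589). Of the 7 factors that bind or degrade early transcripts, 0 were called higher and 4 lower, with a median of -0.23. They were Hnrnpd (-0.53, adjusted p = 0.00974), Zfp36l1 (-0.32, adjusted p = 0.0207), Cnot7 (-0.23, adjusted p = 0.0482) and Khsrp (-0.20, adjusted p = 0.0338). Zfp36, a decay factor counted with the other early response genes and not among these 7, was called higher (0.77, adjusted p = 0.0333). Hnrnpd passed in all 8 fits without 1 embryo, Zfp36l1 in 4, Khsrp in 2 and Cnot7 in 1, with adjusted p of up to 0.124. Of the 11 other settings, Hnrnpd passed in 9 (adjusted p up to 0.0755, smallest fall -0.30) and Zfp36l1 in 9 (up to 0.234). Khsrp passed in 6 of them (up to 0.144) and Cnot7 in 6 (up to 0.562). Among 11 heat shock genes, which also respond to handling of tissue, 0 were called (0 higher and 1 lower at an unadjusted p under 0.05, 0 higher and 1 lower by DESeq2), with log2 fold changes of -0.42 to 0.22.

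**Figure D5:**
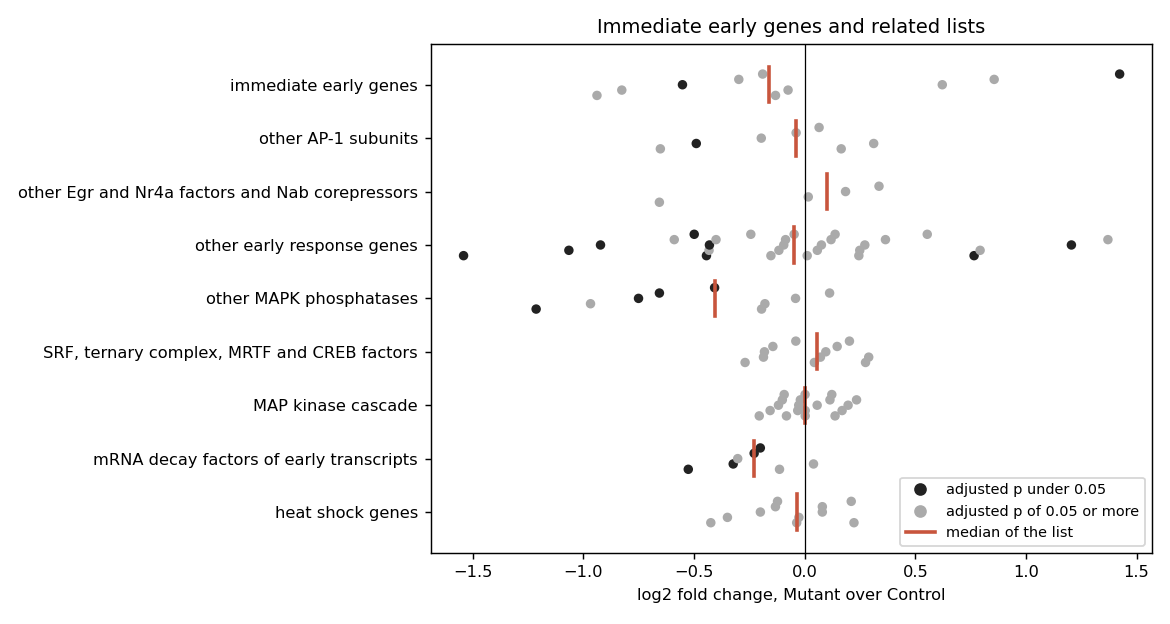
Log2 fold changes, K14Cre;Jagged1fl/fl over control, of the tested genes in the immediate early list and in 8 related lists, with the median of each list as a bar and genes with an adjusted p under 0.05 in dark. The median of the MAPK phosphatases lies at -0.41 and that of the MAP kinase cascade at 0.0013.

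The genes whose pattern over the 8 embryos was most like that of Fos were found by Pearson's r of log2 CPM among 11833 genes with a mean of at least 5 CPM. They were Ntn4 (r = 0.985), Nprl2 (0.984), Cops9 (0.984), Polr2g (0.978) and Spcs2 (0.978). All 5 were highest in K14J26 or K14J29 and had log2 fold changes of 0.17 to 0.34, and none passed (adjusted p = 0.106 to 0.220). Genotype and enamel score vary together across the embryos, so the r is a description over 8 libraries, and no likeness was tested.

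The libraries held the markers of molar tissue, and several marker lists differed between the groups beside the members. Of 6 dental epithelium markers, 1 was called higher (Krt14, log2 fold change 0.96, adjusted p = 0.0217) and 0 lower. Krt14 passed in 4 of the 8 fits without 1 embryo. By the criteria of the study 1 was higher and 1 lower. The lower one, Epcam, was lower in each mutant than in any control (log2 fold change -0.51, adjusted p = 0.0527). The sum of the 6 markers was 4510 to 5190 CPM in the controls and 5390 to 7810 CPM in the mutants. Krt5 was the largest part of it, at means of 2834 and 3518 CPM. Of 6 dental mesenchyme markers, 0 were called higher and 4 lower (Pax9, Barx1, Twist1 and Msx1), with sums of 301 to 351 and 237 to 251 CPM. Barx1 passed in 7 of the 8 fits without 1 embryo, Pax9 in 5, Twist1 in 3 and Msx1 in 2. All 4 tested ameloblast markers (Enam, Ambn, Amelx and Mmp20) and 3 of 4 odontoblast markers (Bglap, Dspp and Col1a1) were called higher. Dmp1, the other odontoblast marker, did not pass (log2 fold change 0.59, adjusted p = 0.193). The odontoblast sum was 4310 to 8120 CPM in the controls and 7490 to 23700 CPM in the mutants. Col1a1 was the largest part of it, at means of 5111 and 10970 CPM. Ambn passed in 3 of the 8 fits without 1 embryo and Enam, Amelx and Mmp20 in 4 each. In those fits Bglap passed in 5, Dspp in 4 and Col1a1 in 2. Of 4 osteoblast markers, 2 were higher (Bglap2 and Sp7) and 1 lower (Runx2), with sums of 404 to 452 and 445 to 721 CPM. The 721 CPM was that of K14J28, and the other mutants summed to 445 to 480 CPM. Ibsp stood at 448 CPM in K14J28 and at 141 to 169 CPM in the other mutants. Bglap2 passed in 4 of the 8 fits without 1 embryo, Sp7 in 3 and Runx2 in 3. The part of these marker lists in the changes of Egr3 and Atf3 was not tested beyond the enamel score.

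Markers of other cell types were counted in the same way. Of 6 endothelial markers, 0 were higher and 1 was lower (Tie1), with sums of 304 to 340 CPM in the controls and 245 to 300 CPM in the mutants. Tie1 passed in 2 of the 8 fits without 1 embryo. None of 6 macrophage markers (74.3 to 99.9 and 63.6 to 163 CPM in sum) and none of 5 tested erythroid markers (878 to 1290 and 677 to 1650 CPM) was called, by edgeR's quasi-likelihood test, at an unadjusted p under 0.05 or by DESeq2 (0 genes each). Of 5 tested mast cell and granulocyte markers, the granulocyte genes S100a8 and S100a9 (adjusted p = 0.00720 and 0.0120) were called higher, and the mast cell genes Cpa3 (-0.95, adjusted p = 0.271) and Mcpt4 (-1.10, adjusted p = 0.330) did not pass. The sums of 102 to 124 and 102 to 130 CPM were mostly Kit. Of 6 Schwann cell and neuron markers, 1 was called higher (Tubb3) and 0 lower, with sums of 203 to 241 and 210 to 337 CPM. By the criteria of the study 0 were higher and 1 was lower, and DESeq2 called 1 higher and 1 lower. Their log2 fold changes lay between -1.38 and 0.48 (median -0.17). Tubb3 passed in 1 of the 8 fits without 1 embryo. Of 6 skeletal muscle markers, 1 was called lower (Ckm), 5 were lower by the criteria of the study and 5 by DESeq2, and all 6 log2 fold changes lay between -4.90 and -2.71 (median -3.72). With the muscle-rich controls J6 and J7 left out the log2 fold change of Egr3 was 1.58 (adjusted p = 0.150) and that of Atf3 was -0.64 (adjusted p = 0.133).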

How the data were processed

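Per the labels and the study's methods, poly-A RNA of 8 pools of lower molars was sequenced as single-end reads, trimmed with Trimmomatic and by 5 bases at the 3′ end, and aligned with STAR to GRCm38. The authors deposited raw counts per Ensembl gene and embryo. The methods name GenomicRanges for the counting and the submitters' processing notes name featureCounts. Multi-mapping and strand settings are not given in the sources used here. No library was pooled or left out.

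Symbols came from GENCODE M21 (42462 of 43629 identifiers). The filter required 10 counts or more in 2 embryos of either group and left 17129 genes. Libraries were scaled by TMM, and groups were compared by quasi-likelihood F tests in edgeR 4.0.16 (R 4.3.3). No covariate was fitted, and p-values were adjusted by Benjamini-Hochberg over all genes tested. Totals of 17327224 to 29792467 counts and 4 embryos per group set the precision. CPM are TMM-scaled, log2 CPM used a prior count of 2, and each SE is the log2 fold change over the square root of F.

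The members and lists were chosen with earlier results of these data known. Every member was named, with the called genes of largest change in each list (up to 4 per direction), close relatives, Jag1 and the 5 genes most like Fos. Nab2 and Srf counted as close relatives. Alternatives were other scalings, filters and thresholds, DESeq2 1.42.0, the exact test, covariates (Xist, enamel and muscle scores), omission of the 20 most abundant genes and omission of each embryo. The test was tested on simulated data for 16819 genes of these libraries, where it recovered 40% of 1.5-fold, 67.3% of 2-fold and 89.8% of 4-fold changes, and 8.12% of its calls were unchanged genes. The simulation changed 49 or 50 genes at each fold, far fewer than the 1631 and 1133 called in these data. It also drew the noise of each gene independently, so these rates need not hold for the real libraries.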

Additional observations from a re-analysis of the deposited data

Results flagged for a closer look

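In 4 of the 108 groups of 4 embryos examined, 1 embryo stood apart from the other 3 of its group by Dixon's criterion, where chance alone gives about 5.4. None of the 4 concerned one of the 10 members. Egr4 had 0.0519 CPM in the control J6, from 1 read, and 0 in the other controls. Ier5 was at 75.4 CPM in the mutant K14J29, with the nearest mutant at 88.5 CPM. Ambn was at 31600 CPM in the mutant K14J26, with the nearest mutant at 4570 CPM. Tubb3 was at 160 CPM in the mutant K14J28, with the nearest mutant at 238 CPM.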

How the results depend on the processing

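Of 199 values of a member under an alternative setting, 176 kept their direction and their side of the threshold, 13 lost the call, 5 gained it and 5 reversed. For the other named genes, 561 of 834 kept both, 255 lost the call, 8 gained it and 10 reversed. Of the 24 within-embryo differences without 1 embryo, all kept their direction and stayed within 1 SD. With DESeq2, 2 members were called higher, 2 members were called lower and 2244 genes were called higher and 1718 lower in all. The exact test called 1 member higher and 3 lower, with 1871 genes higher and 1257 lower in all. At an adjusted p under 0.10, 2 members were higher and 3 lower. All genes were not counted at that threshold, so these 2 counts have no share of all genes beside them. With library size alone, 1 member met the criteria of the study as higher and 855 genes were called higher and 1060 lower. With the enamel score as a covariate, 0 members were called higher, 0 lower and 0 met the criteria as higher and 2 as lower, with 186 genes higher and 112 lower, and 6 log2 fold changes reversed, those of Fos (-0.13), Egr1 (-0.52), Nr4a1 (0.074), Rhob (-0.041), Ambn (-0.41) and Col1a1 (-0.038). With the muscle score, 0 members were called in either direction, 1 met the criteria as higher and 1 as lower, with 73 genes higher and 61 lower. With J6 and J7 left out, an alternative chosen after seeing the data, 0 members were called in either direction and 1 met the criteria as higher and 2 as lower, with 3 genes higher and 4 lower over 6 embryos. Nr4a2 reversed with upper-quartile scaling (-0.024), library size alone (-0.076), Xist as a covariate (-0.076) and without J5, K14J29 or K14J30 (range without 1 embryo -0.066 to 0.089), and Jund with Xist (0.056). Junb reversed without J5 or K14J28 (range without 1 embryo -0.16 to 0.018). Without 1 embryo in turn, 0 to 2 members were called higher, 0 to 1 lower and 1 to 3 met the criteria as higher, and between 250 and 2479 genes were called higher and between 170 and 1843 lower. The counts were lowest without K14J29 and highest without K14J28. The causes of these shifts were not tested. Egr2 had under 10 counts in K14J26, so it has no value under the filter of 10 counts in all 8 embryos. No paired analysis was possible because the groups share no replicate number. Depth limits Egr2, Egr3 and Fosb most, at 8 to 85 reads per embryo.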
